A study of Homo sapiens with 12 samples.

Results

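The retinal pigment epithelium (RPE) is the pigmented cell layer that supports the photoreceptors of the eye, and ARPE-19 is an established human cell line derived from it. Poly(A) RNA was sequenced from a stable ARPE-19 line expressing OSK and from a stable line expressing GFP, each collected 4 days after expression of the open reading frame (ORF) began. OSK is taken here to stand for POU5F1 (OCT4), SOX2 and KLF4, and GFP is a fluorescent protein that served as the ORF control. The comparison takes 3 OSK and 3 GFP libraries of 12 in the series. The other 6 are 3 of a stable line expressing GSTA4, a glutathione transferase, and 3 of WT cells, whose culture the labels do not describe. Of 60605 lines in the deposited table of read counts, the 40591 that carry a gene symbol were used, and 15179 of these held enough reads to be tested. The sources used here do not give the vector, the promoter that drives each ORF or the number of clones, so the effect of the factors and other differences between the lines cannot be told apart. Nothing says that the 3 libraries of a group came from separate cultures, and the p-values then measure only the spread between these libraries.

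POU5F1, SOX2 and KLF4 are transcription factors that, together with MYC, can return differentiated cells to a pluripotent state. POU5F1 and SOX2 bind neighbouring DNA sites, an octamer and a short AT-rich motif, and in pluripotent cells they sustain each other and NANOG. KLF4 is a zinc finger factor of GC-rich sites that also controls the barrier genes of stratified epithelium. Reprogramming of fibroblasts usually passes through early steps of faster division, loss of the starting cell's genes and a gain of epithelial genes, and the pluripotency genes come on late.

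Total counts ran from 12630675 to 16455864 reads over the 6 libraries. GFP replicate 1 stood apart, where 27349 named genes had a read, while the other 5 libraries had one on 19511 to 22073. Correlations of log2 levels lay between 0.989 and 0.99 within the OSK group, between 0.984 and 0.988 within the GFP group and between 0.949 and 0.954 across them. Levels are given as CPM, read counts brought to a common library size with TMM scaling. A count of 3 reads, the level set here as the floor, came to 0.19 to 0.228 CPM. Of the defining RPE markers, PMEL, MITF, OTX2, SERPINF1, TYR, BEST1 and RLBP1 were detected in every library of both lines. RPE65, the isomerase of the visual cycle, held only 9, 10 and 3 reads in the OSK libraries and 2, 3 and 1 in the GFP libraries.

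The introduced factors separated the lines. POU5F1 measured 810.1, 764 and 763 CPM in OSK replicates 1, 2 and 3 and 0.380, 0.143 and 0.136 CPM in the GFP libraries. SOX2 stood at 633, 623 and 629 CPM against 0.380, 0 and 0.0679 CPM, and KLF4 at 949, 923 and 912 CPM against 0.912, 0.788 and 0.272 CPM. The lowest OSK library lay far above the highest GFP library for each factor, which matches the labels, and the log2 fold changes were 11.77 ± 0.16, 12.01 ± 0.17 and 10.47 ± 0.19 (edgeR adjusted p = 1.63e-21, 7.18e-18 and 7.46e-20). Without GFP replicate 1 they were 12.36 for POU5F1 and 13.82 for SOX2 (few reads of either lay in GFP). The table does not separate ORF reads from reads of the cells' own gene copies. Near-identical copies of POU5F1 also gained reads: POU5F1P3 went from a mean of 0.146 CPM in GFP to 11.6 CPM in OSK and POU5F1P4 from 0.146 to 5.88 CPM. Reads of these pseudogenes and of POU5F1 cannot be told apart here.

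**Figure D1:**
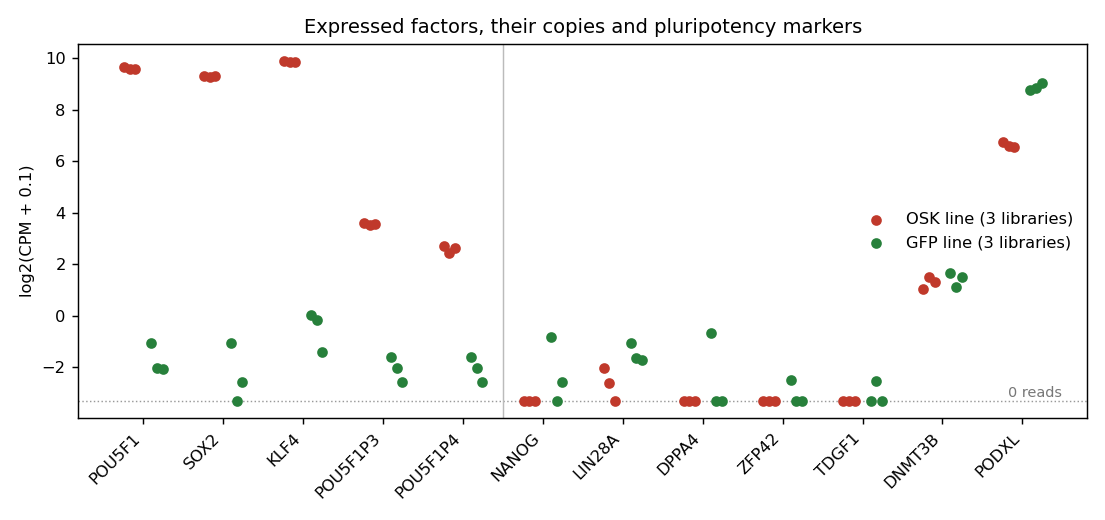
Level of the 3 introduced factors, of 2 POU5F1 pseudogenes and of 7 pluripotency genes in each OSK library (red) and GFP library (green), as log2(CPM + 0.1) on the vertical axis, with the dotted line at 0 reads. POU5F1, SOX2 and KLF4 lie above 9 in every OSK library, whereas NANOG, DPPA4, ZFP42 and TDGF1 sit at 0 reads in all 3 OSK libraries.

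Expression differed widely between the lines. With an adjusted p under 0.05 as the threshold, 6962 of 15179 genes passed (45.9%), 3508 higher in OSK (23.1%) and 3454 lower (22.8%). Of all tested genes, 54.7% had OSK and GFP libraries that did not overlap. Most changes were small: the median absolute log2 fold change of the genes that passed was 0.549. At a log2 fold change of at least 1, 769 genes were higher (5.07%) and 998 lower (6.57%), and past 3 there were 107 higher and 52 lower. The balance rested on the scaling, since scaling by library size alone called 2761 higher and 4180 lower, or 39.8% higher in place of 50.4%. The protein-coding genes split 3359 higher to 3053 lower among 13037 tested. Among 1029 long noncoding RNAs (lncRNAs), 80 were higher and 299 lower, and without GFP replicate 1 these were 82 and 241. Of 620 processed pseudogenes, 8.87% passed.

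**Figure D2:**
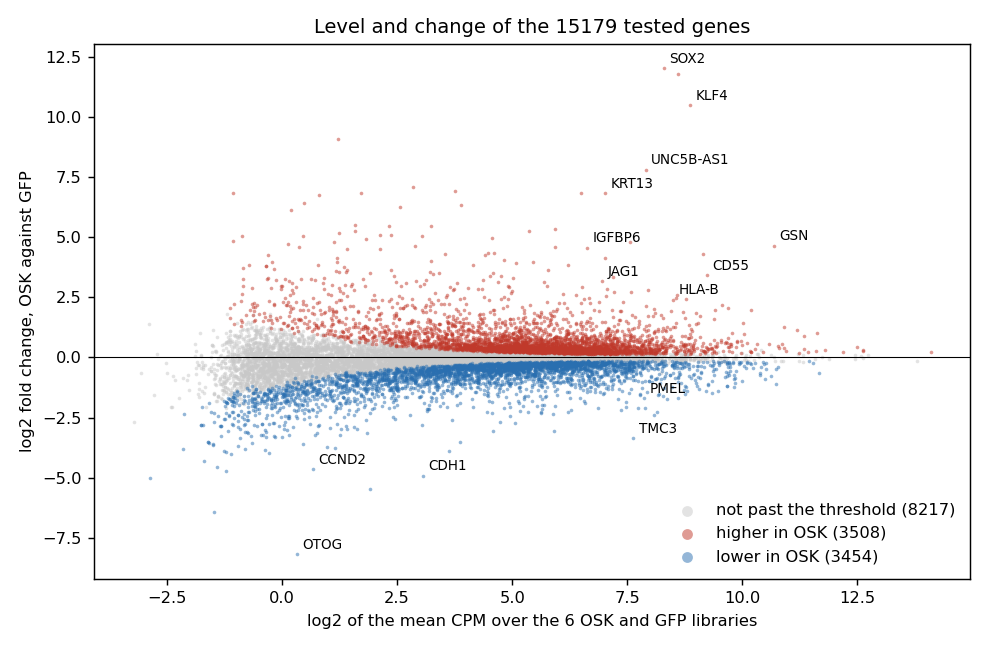
Each point is 1 of the 15179 tested genes, with the log2 of its mean CPM over the 6 OSK and GFP libraries on the horizontal axis and its log2 fold change, OSK against GFP, on the vertical axis. Genes past the threshold are red (3508 higher in OSK) or blue (3454 lower); GSN combines a high level with a large rise, and OTOG has the lowest fold change among the labelled genes.

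A gene was counted as gained where it passed the test, every OSK library held at least 1 CPM and every GFP library less than 0.5 CPM, and as lost in the mirror case. By this rule 41 genes were gained (0.27% of those tested), POU5F1 and SOX2 among them, and 31 lost (0.204%). KLF4 did not meet it, with up to 0.912 CPM in GFP. The counts depend on single libraries: without GFP replicate 1 the gained genes numbered 82, without GFP replicate 3 the lost genes numbered 77, and without OSK replicate 2 they numbered 55. Of the 41 gained genes, 29 code for protein, 6 are lncRNAs and 6 pseudogenes, and 24 lay under 0.5 CPM in all 6 GSTA4 and WT libraries as well. Only 5 of the gained genes exceeded a mean of 10 CPM in OSK, and no lost gene exceeded that in GFP, so most of the on and off switching took place at low levels. Of the 31 lost genes, 3 held at least 1 CPM in every WT library and none lay under 0.5 CPM in all 6 GSTA4 and WT libraries.

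The gained genes code for proteins of many kinds. GPR1, a receptor of the adipokine chemerin that RefSeq lists as CMKLR2, measured 13.1, 11.96 and 17.7 CPM in OSK and 0.0760, 0.0717 and 0.136 CPM in GFP, at least 66.02-fold higher against the floor of 3 reads per GFP library. FGF7, the keratinocyte growth factor, measured 5.48, 7.34 and 6.61 CPM against 0, 0 and 0.136 CPM, at least 30.04-fold higher by the same floor. NR4A3, an orphan nuclear receptor of the immediate early class, stood at 10.6, 9.24 and 10.3 CPM against 0.304, 0.215 and 0.340 CPM. The rule for gained genes sets this separation. ULBP2 and RAET1L, ligands of the NKG2D receptor of natural killer cells, averaged 8.51 and 2.66 CPM in OSK against 0.243 and 0.0731 CPM. CRNN (cornulin) and KRT16, both of stratified epithelium, averaged 4.60 and 2.26 CPM against 0.124 and 0.0253 CPM. MS4A2, the beta chain of the mast cell IgE receptor, measured 5.55, 5.25 and 6.82 CPM against 0.228, 0.0717 and 0.0679 CPM, while CPA3 and TPSAB1, a carboxypeptidase and a tryptase of mast cells, had 0 reads in all 6 libraries. Others were NRCAM, a neuronal adhesion molecule (4.19 CPM against 0.151), ANGPT1, the TIE2 ligand angiopoietin 1 (2.002 against 0.217), PTGER2, a prostaglandin E2 receptor (2.07 against 0.240), and SIX2, a homeobox factor (1.05 against 0.0704). The sizes of such changes rest on single reads in GFP: without GFP replicate 1 the log2 fold change went from 4.78 to 6.60 for NRCAM, from 6.13 to 8.07 for KRT16, from 5.17 to 5.88 for CRNN and from 5.52 to 6.23 for MS4A2. Without GFP replicate 2 it went from 5.05 to 5.91 for RAET1L and from 3.72 to 4.58 for SIX2, and without GFP replicate 3 from 6.85 to 9.58 for FGF7.

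Among the lost genes, CCND2, which codes for cyclin D2, measured 0.0712, 0.0633 and 0.211 CPM in OSK and 3.88, 2.01 and 3.33 CPM in GFP, at least 15.00-fold lower. TP63, the p53 relative that keeps basal cells of stratified epithelium, measured 0.0712, 0.253 and 0.141 CPM against 1.44, 2.22 and 1.22 CPM. TRIM71, a stem cell RNA-binding protein and let-7 target, measured 0.213, 0.317 and 0.211 CPM against 1.75, 1.36 and 2.31 CPM. CYP26A1, which breaks down retinoic acid, measured 0.213, 0.317 and 0.281 CPM against 1.37, 1.36 and 1.63 CPM. The GSTA4 and WT means were 4.27 and 2.42 CPM for CCND2, 0.138 and 0.567 for TP63, 0.271 and 0.523 for TRIM71, and 0.276 and 1.10 for CYP26A1, so for TP63, TRIM71 and CYP26A1 the mean of the GFP line lay above those of the 3 other groups. The lncRNAs CASC19 and PRNCR1 were uneven within GFP, at 10.3, 10.1 and 1.83 and 4.64, 5.02 and 1.36 CPM, against 0.155 and 0.270 CPM in OSK. Their GSTA4 and WT means were 0.814 and 0.967 CPM for CASC19 and 0.119 and 0.414 CPM for PRNCR1, so GFP was the highest group for both. PRNCR1 did not pass for OSK against the GSTA4 line or WT cells (log2 fold changes 1.18 and -0.62, edgeR adjusted p = 0.377 and 0.568). OTOG, which codes for the inner ear protein otogelin, had 0 reads in the OSK libraries and 5.09, 1.36 and 1.02 CPM in GFP, at least 12.2-fold lower over the group means, and 5.81-fold without GFP replicate 1. OTOG averaged 0 CPM in the GSTA4 line and 0.257 CPM in WT cells, so its GFP mean also lay above those of the 3 other groups.

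Among genes that the GFP line already expressed, some rose by large amounts. These differences are not per length and do not rank the genes by molecules. GSN, which codes for the actin-severing protein gelsolin, measured 3646, 2934 and 2931 CPM in OSK and 124, 122 and 135 CPM in GFP (log2 fold change 4.64 ± 0.12, edgeR adjusted p = 2.56e-17). Its means in the GSTA4 and WT groups were 80.6 and 223 CPM, so the OSK line stood above all 3 other groups. NFATC2, a calcium-regulated transcription factor, measured 197, 157 and 183 CPM against 2.05, 1.15 and 1.49 CPM, and KRT13, a keratin of stratified mucosa, 255, 256 and 257 CPM against 1.22, 1.86 and 3.60 CPM. The rule that names them required groups without overlap, and the 3 OSK values of KRT13 were nearly equal. IGFBP6, a secreted IGF-binding protein with a preference for IGF2, measured 169, 181 and 219.8 CPM against 5.63, 9.10 and 9.31 CPM. AGRN (agrin, a basement membrane proteoglycan) had means of 4204 and 2108 CPM, and PSAP (prosaposin, a lysosomal precursor) of 6656 and 4928 CPM. The lncRNA UNC5B-AS1 averaged 476 CPM against 2.13 CPM. The lncRNA LINC00707 had only 8, 1 and 0 reads in GFP and averaged 26.8 CPM in OSK (log2 fold change 6.90 ± 0.39, and 9.27 without GFP replicate 1). UNC5B-AS1 lies antisense to UNC5B, which also rose, and since no strand setting is stated their reads cannot be told apart.

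Of the genes that fell furthest, TMC3, a channel-like membrane protein, measured 35.4, 38.4 and 31.4 CPM in OSK and 364, 340.3 and 383 CPM in GFP (log2 fold change -3.37 ± 0.14, edgeR adjusted p = 6.16e-14). CCDC141, a coiled-coil protein, measured 1.49, 1.84 and 1.27 CPM against 27.4, 20.6 and 21.7 CPM, and the hair keratin KRT38 3.06, 2.22 and 1.83 CPM against 25.2, 30.4 and 24.6 CPM. DUSP2, a phosphatase of MAP kinases, averaged 0.304 CPM against 4.13 CPM. The rule that names these 4 genes required groups without overlap. Their WT means were 213, 15.6, 9.88 and 2.23 CPM, each between the OSK and GFP means. By CPM the losses were led by EEF1A1, an elongation factor that did not pass (edgeR adjusted p = 0.084, 0.00197 without GFP replicate 1 and 0.045 without WT replicate 1), MYH9 (nonmuscle myosin, 2548 against 3982 CPM), CLSTN2 (calsyntenin 2, 1087 against 2313 CPM), MALAT1 (a nuclear lncRNA, 1009.9 against 1868 CPM) and ALDH1A3 (a retinoic acid synthase, 1165 against 1992 CPM). MALAT1 was uneven within GFP, at 2065, 2439.6 and 1101 CPM, and its lowest GFP library stood only slightly above its highest OSK library.

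RefSeq promoters (250 bases before the annotated start, build GRCh38.p14) were available for 11474 of the tested genes. They were searched on both strands for the octamer ATGCAAAT, for CATTGT as a SOX motif and for GGGNGTGG as a KLF motif. The KLF motif was found in 22.5% of 187 promoters of genes past the threshold with a log2 fold change of at least 2, in 18.6% of 140 promoters of genes at or under -2 and in 18.9% of the promoters of all tested genes. The octamer was found in 4.28%, 3.57% and 1.24% of them, and the SOX motif in 9.09%, 7.86% and 5%. The first 2 octamer shares rest on only 8 and 5 promoters. Over all genes past the threshold, higher and lower, the octamer was in 1.56% and 1.19% of promoters. The SOX motif was in 4.45% and 5.43% and the KLF motif in 21.2% and 20.2%, so all 3 lay near the shares of all tested genes. Over all 27305 promoters of the table the shares were 1.66% for the octamer, 9.45% for the SOX motif and 15.3% for the KLF motif. Rising and falling genes had similar shares for each motif. The following promoters of genes that rose are shown because each holds 1 of the searched motifs, in capitals; no bound site was measured. They lie at chr12:53097417-53097666 on the plus strand (IGFBP6), chr5:53480379-53480628 on the plus strand (FST, an activin and BMP antagonist described further on), chr2:206213372-206213621 on the minus strand (GPR1) and chr1:152414264-152414513 on the minus strand (CRNN). The first 3 hold the KLF motif and the last the SOX motif.
IGFBP6: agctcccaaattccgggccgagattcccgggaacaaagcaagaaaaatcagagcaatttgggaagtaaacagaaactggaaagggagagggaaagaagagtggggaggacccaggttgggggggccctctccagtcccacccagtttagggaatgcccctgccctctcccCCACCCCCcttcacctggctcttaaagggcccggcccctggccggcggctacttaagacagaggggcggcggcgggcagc
FST: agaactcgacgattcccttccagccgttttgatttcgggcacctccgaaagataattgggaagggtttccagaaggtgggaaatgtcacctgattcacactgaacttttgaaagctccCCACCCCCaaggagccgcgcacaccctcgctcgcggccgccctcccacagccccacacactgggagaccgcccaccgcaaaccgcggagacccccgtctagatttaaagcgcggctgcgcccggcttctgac
GPR1: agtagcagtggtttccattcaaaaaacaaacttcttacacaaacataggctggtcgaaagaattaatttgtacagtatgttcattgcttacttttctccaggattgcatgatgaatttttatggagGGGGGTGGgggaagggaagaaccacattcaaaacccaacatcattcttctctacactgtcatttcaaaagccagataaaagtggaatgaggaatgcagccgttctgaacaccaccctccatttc
CRNN: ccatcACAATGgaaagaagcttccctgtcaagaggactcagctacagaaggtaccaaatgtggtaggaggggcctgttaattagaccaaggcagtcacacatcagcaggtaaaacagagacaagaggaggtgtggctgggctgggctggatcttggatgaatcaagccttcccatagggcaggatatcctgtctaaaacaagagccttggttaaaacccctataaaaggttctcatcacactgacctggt
The KLF motif reads as its reverse complement, CCACNCCC, in IGFBP6 and FST and in the forward direction in GPR1, and the SOX motif reads as its reverse complement in CRNN.

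Most genes of the pluripotency network were at or near 0 reads in OSK. Of 32 listed genes other than the introduced factors, 6 held enough reads to be tested: none was higher in OSK and 5 were lower, and their median log2 fold change was -1.38, beside -0.019 over all tested genes. Of all tested genes 23.1% were higher and 22.8% lower. The control mattered for these 6 genes: against the GSTA4 line 1 was higher and 2 lower, and against WT cells 1 and 3. Of the 26 untested genes, 20 had 0 reads in all 3 OSK libraries and 24 had 3 reads or fewer in each. In the GFP libraries these counts were 5 and 13, but 24 genes had 3 reads or fewer in GFP replicates 2 and 3. NANOG, the core partner of POU5F1 and SOX2, had 0, 0 and 0 reads in OSK and 6, 0 and 1 in GFP. LIN28A, which blocks let-7 maturation, had 2, 1 and 0 against 5, 3 and 3 reads. DPPA4, ZFP42, TDGF1, UTF1, PRDM14 and TERT had 0 reads in every OSK library. NODAL, a TGF-β family ligand, had 7, 3 and 0 against 8, 2 and 1 reads. PODXL, which codes for the podocalyxin backbone of the TRA-1-60 antigen, fell from 433, 457 and 524 CPM in GFP to 106, 97.05 and 93.9 CPM in OSK (log2 fold change -2.25 ± 0.09, edgeR adjusted p = 7.06e-14). Its means were 35.6 CPM in the GSTA4 line and 174 CPM in WT cells. TET1, a 5-methylcytosine oxidase, fell from 3.95, 5.09 and 5.71 to 1.49, 2.03 and 1.27 CPM, while the methyltransferase DNMT3B did not pass (log2 fold change -0.15 ± 0.27, edgeR adjusted p = 0.685). Against WT cells DNMT3B was higher in OSK (log2 fold change 0.98, edgeR adjusted p = 0.0099, and 0.87 and 0.0477 without WT replicate 1). The 35 HOX genes listed were all untested, and 34 of them had 0 reads in every OSK library.

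Other members of the KLF, SOX and POU families moved in both directions. Of 13 tested KLF genes besides KLF4, 3 were higher and 7 lower, beside 23.1% and 22.8% of all tested genes. KLF3, a repressor of the family, rose from 65.9, 57.99 and 61.1 CPM to 446, 428 and 417 CPM, and KLF9 from 127, 125 and 123 to 321, 279 and 297 CPM. The groups did not overlap for either gene, as for 54.7% of all tested genes. KLF5, KLF11 and KLF2 fell, with log2 fold changes of -0.9996 ± 0.08, -0.98 ± 0.11 and -1.14 ± 0.39, but KLF2 lost its call without OSK replicate 1, OSK replicate 2 or GFP replicate 1 (-0.91, -1.14 and -1.06, edgeR adjusted p = 0.0928, 0.0517 and 0.0548). Of 9 tested SOX genes besides SOX2, 2 were higher and 4 lower. SOX8 fell from 243, 275 and 298 to 54.4, 61.98 and 60.9 CPM and SOX4 from 297, 293 and 327 to 151, 148 and 149 CPM, whereas SOX5, a factor of neural crest and cartilage, rose from 4.41, 3.51 and 4.35 to 20.1, 17.2 and 19.6 CPM. SOX15, the other gene called higher, lost its call when any of OSK replicates 2 and 3 or GFP replicates 1 and 2 was left out (log2 fold changes 0.81 to 0.92, against 0.94), and when scaled by library size alone (0.87). POU6F1 and POU2F1 rose (log2 fold changes 1.12 ± 0.15 and 0.53 ± 0.08) and POU3F2 did not pass.

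Markers of simple epithelium and its junctions were lower in OSK for most tested members: 14 of 23 fell, 2 rose and 7 did not pass, with a median log2 fold change of -0.68. Among all tested genes 22.8% fell and 23.1% rose. CDH1, which codes for E-cadherin, measured 0.213, 0.380 and 0.985 CPM in OSK and 16.3, 11.5 and 20.2 CPM in GFP (log2 fold change -4.92 ± 0.40, edgeR adjusted p = 2.95e-09, and -5.69 without OSK replicate 3). Its levels in the GSTA4 and WT libraries were 0.0635, 0.375 and 0.206 and 1.99, 2.72 and 5.07 CPM, so the GFP line stood above all 3 other groups. The keratins KRT8, KRT18 and KRT7 fell by less (log2 fold changes -0.75 ± 0.09, -0.46 ± 0.08 and -0.85 ± 0.10), as did the tight junction protein OCLN (-1.09 ± 0.16) and the desmosomal proteins DSC2 (-1.06 ± 0.10) and JUP (-0.75 ± 0.07). DSP (desmoplakin) and CGN (cingulin) rose, from 244, 228 and 276 to 454, 456 and 409 CPM and from 7.38, 4.73 and 8.36 to 12.7, 17.1 and 14.5 CPM. EPCAM, a defining epithelial adhesion molecule, had 0 reads in the OSK libraries and 2, 2 and 0 in GFP, and CLDN7 had 6, 9 and 18 reads against 0, 0 and 1.

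Stratified epithelium genes changed in both directions. Of 34 listed, 23 were untested, 3 rose (KRT13, CRNN and KRT16, given above) and 4 fell (2 when only genes with a mean of at least 1 CPM were tested). Among all tested genes 23.1% were higher and 22.8% lower. KRT13 had a log2 fold change of 6.81 ± 0.18 (edgeR adjusted p = 5.87e-17). The basal keratins KRT5 and KRT14 and the cornified envelope genes SPRR1A, SPRR1B and SPRR2A had 0 or 1 reads in every OSK library. KRT23 fell at the edge of detection, from 0.730 to 0.0211 CPM, and PPL and DSC3, desmosomal proteins, had log2 fold changes of -0.31 ± 0.08 and -0.43 ± 0.08.

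Mesenchymal genes, often set against epithelial ones in reprogramming, also fell in the main: 11 of 16 tested were lower, 4 higher and 1 did not pass (median log2 fold change -0.68). Of all tested genes 22.8% were lower and 23.1% higher. TAGLN (transgelin) measured 29.7, 29.8 and 24.3 CPM against 106, 124 and 149 CPM, PDGFRB (a PDGF receptor) 371, 336 and 321 against 623, 661 and 696 CPM, and CDH2 (N-cadherin) 139, 128 and 140.1 against 266, 254 and 262 CPM. Those 3 genes had no overlap between the lines, nor had 54.7% of all tested genes. The risers were ITGA5, the α5 chain of the fibronectin receptor, at 268, 241 and 259 CPM against 34.1, 40.6 and 43.4 CPM, CDH11 (cadherin 11) at 351, 320.3 and 404 against 142, 138 and 146 CPM, ZEB1, a repressor of CDH1, at 38.7, 40.9 and 47.6 against 17.03, 13.6 and 14.5 CPM, and S100A4 at 3.84, 3.67 and 3.17 against 1.06, 0.860 and 0.883 CPM. ITGA5 had a log2 fold change of 2.699 ± 0.10 (edgeR adjusted p = 6.39e-15) and had means of 40.7 and 50.4 CPM in the GSTA4 and WT groups. S100A4 averaged 3.18 CPM in WT cells, close to its level in OSK.

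Of the RPE genes, 16 of 26 tested were lower in OSK, 5 higher and 5 not past the threshold (median log2 fold change -0.48). The shares of all tested genes were 22.8% lower and 23.1% higher. Among pigment genes, PMEL, the amyloid of melanosomes, fell from 315, 391 and 365 to 114, 111 and 108 CPM (log2 fold change -1.69 ± 0.13, edgeR adjusted p = 1.54e-09). TYR (tyrosinase) and TYRP1 had log2 fold changes of -0.97 ± 0.20 and -0.49 ± 0.14, and the melanosomal receptor GPR143 -0.81 ± 0.09. The transcription factor MITF fell from 243, 254 and 253 to 144, 141 and 152 CPM, LHX2 from 106, 98.8 and 108 to 62.3, 66.03 and 62.05 CPM, and OTX2 by less (-0.26 ± 0.06), while PAX6 did not pass (-0.09 ± 0.05, edgeR adjusted p = 0.177, and 0.0114 when scaled by library size alone).

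In the visual cycle, RLBP1, the retinaldehyde-binding protein, fell from 4.64, 5.45 and 5.64 to 0.640, 1.01 and 0.422 CPM and LRAT, which esterifies retinol, from 3.35, 3.15 and 5.16 to 1.49, 1.71 and 0.985 CPM. The retinol dehydrogenases RDH5, RDH11 and RDH10 rose, with log2 fold changes of 1.44 ± 0.19, 0.43 ± 0.08 and 0.36 ± 0.12; RDH10 lost its call without OSK replicate 3 or GFP replicate 1, at 0.23 and 0.24 (edgeR adjusted p = 0.147 and 0.127). BEST1, a chloride channel, fell from 6.84, 9.46 and 9.65 to 3.20, 2.41 and 2.95 CPM and TRPM1, the host gene of a pigment cell microRNA, from 65.01, 90.2 and 85.3 to 18.6, 24.4 and 18.2 CPM. The secreted proteins EFEMP1 (fibulin 3) and CST3 (cystatin C) rose, EFEMP1 from 1656, 1878 and 1919 to 3106, 3256 and 3709.9 CPM, and SERPINF1 (PEDF) fell (-0.80 ± 0.14). The control mattered for this list. Against WT cells 9 members were higher in OSK and 6 lower (22.7% of all tested genes in each direction), and against the GSTA4 line 10 and 7. These comparisons share the OSK libraries. The WT means of RLBP1, BEST1 and TRPM1 were 1.46, 2.96 and 14.1 CPM, nearer to OSK than to GFP, and that of PMEL was 245 CPM. With WT in place of GFP, the log2 fold changes of TYR and SERPINF1 turned to 0.67 and 0.62 (edgeR adjusted p = 0.0124 and 0.00113), and those of TRPM1, LRAT and TYRP1 to 0.54, 0.39 and 0.27, which did not pass. WT replicate 1 stood apart from WT replicates 2 and 3 (chi-square per degree of freedom 15 and 17.4, against 2.54 between those 2), and held 2.74 CPM of TRPM1 against 20.4 and 19.2. Without it the 5 values were 0.33, 0.47, 0.05, 0.39 and 0.09, of which the first 2 passed (edgeR adjusted p = 0.013 and 0.00188), and 9 members were higher and 9 lower. No WT mean given elsewhere in these results moved by over 1.5 times without it.

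**Figure D3:**
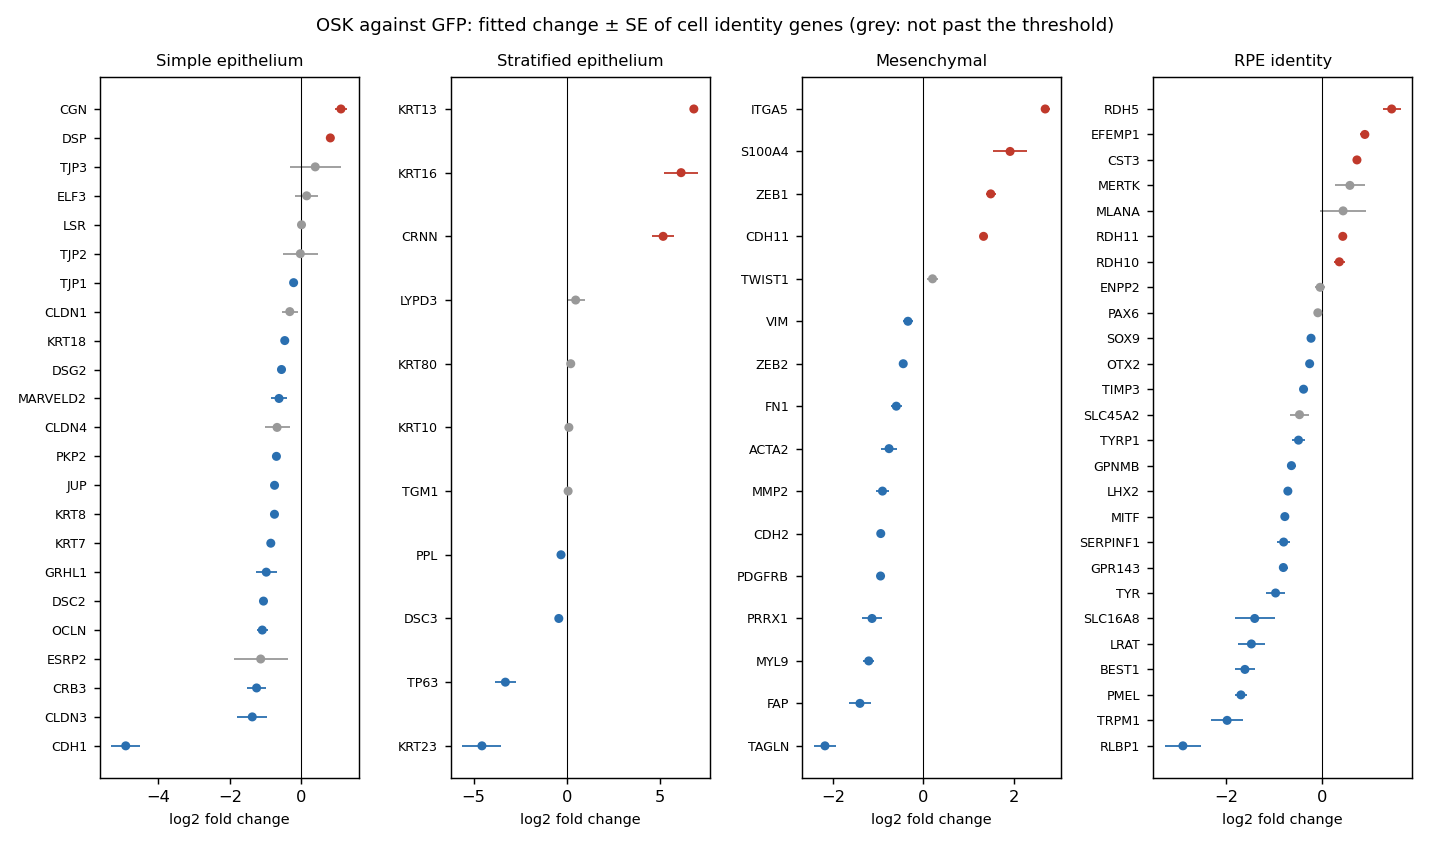
Fitted log2 fold change, OSK against GFP, with its SE (bars), for the tested members of 4 cell identity lists; red points passed the threshold upward, blue downward and grey did not pass. CDH1 lies furthest left among the epithelial genes, KRT13 furthest right among the stratified ones, and in the RPE list RLBP1 and RDH5 mark the ends.

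Genes of cell division rose as a group. Of 42 tested genes of mitosis, 40 were higher and none lower (median log2 fold change 1.18), and of 43 of DNA replication 27 were higher and none lower (median 0.54). The share higher among all tested genes was 23.1%. UBE2C, a ubiquitin-conjugating enzyme of the anaphase-promoting complex, measured 19.99, 22.1 and 25.3 CPM in OSK and 5.32, 6.16 and 5.98 CPM in GFP. PLK1, the polo-like kinase, measured 25.8, 31.3 and 33.1 against 11.5, 9.61 and 11.5 CPM and CCNB1 (cyclin B1) 42.9, 40.01 and 46.9 against 21.1, 20.7 and 22.1 CPM. E2F1, the transcription factor of S phase entry, measured 33.7, 36.97 and 37.4 against 9.28, 9.03 and 10.6 CPM (log2 fold change 1.90 ± 0.11, edgeR adjusted p = 2.20e-11), and TK1 (thymidine kinase) 49.5, 56.6 and 63.2 against 17.4, 19.6 and 21.1 CPM. None of these 5 genes overlapped between the lines, as was the case for 54.7% of all tested genes. In WT cells E2F1 and UBE2C averaged 4.71 and 1.39 CPM, below GFP. Of 17 tested regulators of the G1 phase, 4 were higher and 5 lower. These shares lay near the 23.1% and 22.8% of all tested genes. CDKN2C (p18) rose from 8.67, 8.53 and 12.3 to 20.8, 26.9 and 26.9 CPM and CCND3 from 21.7 to 36.1 CPM, while CDK4 fell from 83.5 to 55.5 CPM and CDKN1A (p21) fell slightly (-0.28 ± 0.08), a call that was lost without GFP replicate 2 (edgeR adjusted p = 0.0577). MYC did not pass (-0.08 ± 0.07, edgeR adjusted p = 0.35).

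Genes of antigen presentation by MHC class I were higher in OSK. Of 16 tested genes of this pathway, 15 were higher and none lower (median log2 fold change 1.44), and PSMB10 did not pass. For this list and the interferon list below, the shares of all tested genes were 23.1% higher and 22.8% lower. HLA-B measured 555, 621 and 638 CPM against 102, 118 and 125 CPM and HLA-C 1272, 1334 and 1393 against 278, 341 and 347 CPM. These genes are near copies of each other, so reads may be shared among them, but B2M, the invariant light chain, also rose, from 239, 285 and 260.0 to 581, 668 and 727 CPM. NLRC5, the activator of the class I genes, rose from 19.998, 19.00 and 18.3 to 70.4, 70.1 and 68.2 CPM (log2 fold change 1.86 ± 0.09, edgeR adjusted p = 1.77e-12), and the peptide transporter TAP1 from 19.4, 20.6 and 23.6 to 54.6, 58.1 and 58.3 CPM. Interferon-stimulated genes followed less evenly, with 14 of 28 higher and 3 lower (median 0.54). DDX60, a viral RNA helicase cofactor, rose from 4.49, 5.30 and 7.13 to 19.9, 26.3 and 32.2 CPM and OAS1 from 0.152, 0.430 and 0.0679 to 1.64, 2.09 and 1.48 CPM, while IRF7 fell from 31.6, 39.1 and 34.6 to 15.2, 18.3 and 14.4 CPM.

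Of the complement and coagulation genes, 8 of 16 tested were higher and 1 was lower, beside 23.1% and 22.8% of all tested genes. CD55, which dismantles complement convertases, measured 1118, 1015 and 1186 CPM in OSK and 111, 100.4 and 98.7 CPM in GFP (log2 fold change 3.42 ± 0.08, edgeR adjusted p = 3.76e-18). CD59, which blocks the membrane attack complex, measured 1026, 983 and 1022 against 327, 337 and 344 CPM and F3 (tissue factor) 1073, 1088 and 1077 against 261, 284 and 274 CPM. The initiating proteases C1R and C1S also rose, with log2 fold changes of 1.25 ± 0.08 and 1.15 ± 0.08, and C3 rose by 1.46 ± 0.18. SERPING1, the inhibitor of C1R and C1S, fell (-0.46 ± 0.08).

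**Figure D4:**
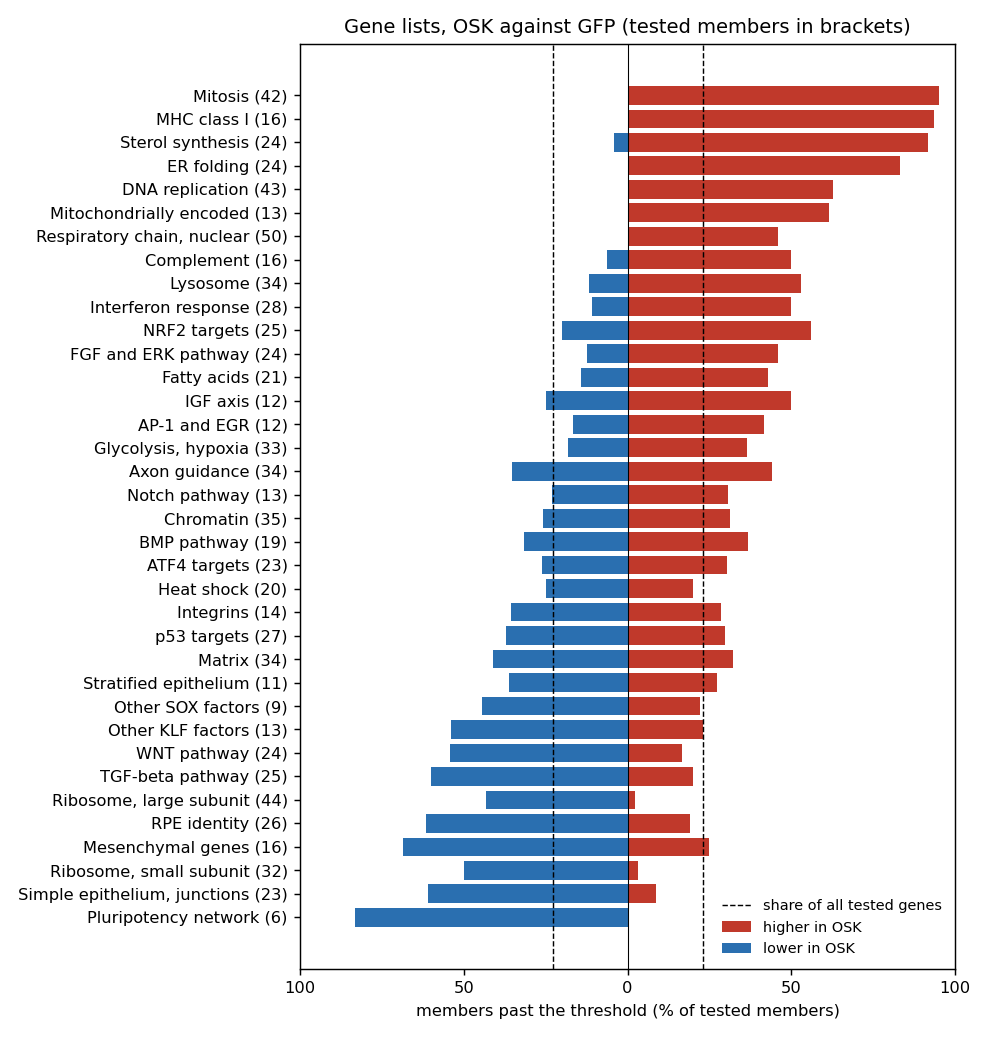
Share of the tested members of 36 gene lists that passed the threshold, higher in OSK to the right in red and lower to the left in blue, in percent, with the number tested in brackets. The dashed lines mark the 23.1% and 22.8% of all tested genes; mitosis, MHC class I and sterol synthesis reach furthest right, and the pluripotency network, with 6 tested genes, furthest left.

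Genes of sterol synthesis and of protein folding were mostly higher in OSK. Beside these lists and that of glycolysis and hypoxia below, 23.1% of all tested genes were higher than in GFP and 22.8% lower. Of 24 tested genes of sterol synthesis and uptake, 22 were higher and 1 lower (median log2 fold change 0.59). MVD, a decarboxylase of the mevalonate pathway, rose from 43.6, 45.2 and 48.4 to 96.6, 104 and 99.4 CPM, while LSS (lanosterol synthase) fell (-0.30 ± 0.07). Of 24 genes of protein folding in the endoplasmic reticulum, 20 were higher and none lower (median 0.4), among them PDIA6 (0.92 ± 0.06), HSP90B1 (0.69 ± 0.07), the chaperone HSPA5 (0.65 ± 0.07) and XBP1 (0.76 ± 0.09). Of the glycolysis and hypoxia genes, 12 of 33 were higher and 6 lower (3 lower without OSK replicate 3 or GFP replicate 3). Against WT cells the same list had 5 higher and 13 lower. LDHA, which makes lactate, measured 927, 835 and 748 CPM against 251, 259 and 252 CPM, and the glucose transporter SLC2A1 3632, 3066 and 2999.8 against 1438, 1476 and 1477 CPM, whereas SLC2A3 fell from 39.8, 34.3 and 38.04 to 21.3, 17.2 and 13.5 CPM and HIF1A had a log2 fold change of -0.66 ± 0.09. In WT cells LDHA averaged 476 CPM, above GFP.

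Of 23 tested ATF4 targets 7 were higher and 6 lower (median log2 fold change -0.05), shares near the 23.1% and 22.8% of all tested genes. Among those higher, PHGDH, the first enzyme of serine synthesis, measured 87.9, 87.9 and 88.7 CPM against 26.1, 26.9 and 25.4 CPM, PSAT1, the next enzyme, 37.3, 37.8 and 38.8 against 9.88, 9.25 and 10.3 CPM, the cystine importer SLC7A11 8.82, 10.8 and 10.6 against 1.14, 0.860 and 1.43 CPM, and CTH, which makes cysteine, 10.1, 13.9 and 11.3 against 3.27, 2.37 and 2.72 CPM. The OSK and GFP libraries did not overlap for these 4 genes, as for 54.7% of all tested genes. ATF4 itself did not pass (0.07 ± 0.07, edgeR adjusted p = 0.483). Of 25 NRF2 target genes 14 were higher and 5 lower. The exporter ABCC1 and glutathione reductase (GSR) rose, with log2 fold changes of 1.18 ± 0.06 and 1.18 ± 0.08, and thioredoxin reductase (TXNRD1) and ferritin heavy chain (FTH1) fell (-0.81 ± 0.06 and -0.63 ± 0.10). The cells' GSTA4 averaged 20.2 CPM in OSK and 8.79 CPM in GFP, against 416 CPM in the GSTA4 line.

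Mitochondrial genes shifted by small amounts. Beside the counts against GFP for these and the ribosomal and lysosomal lists below, 23.1% of all tested genes were higher and 22.8% lower. Of 50 nuclear genes of the respiratory chain 23 were higher and none lower (median log2 fold change 0.19), and of 13 encoded by the mitochondrial genome 8 were higher and none lower (median 0.21). Against the GSTA4 line 5 nuclear genes were higher and 10 lower, and none and 2 of the mitochondrially encoded ones. Genes of cytosolic ribosomal proteins were lower in OSK than in GFP for 19 of 44 of the large subunit and 16 of 32 of the small subunit (medians -0.17 and -0.16), and 1 of each was higher. Against WT cells 3 were lower and 4 higher of the large subunit and none lower and 2 higher of the small (4 and 1 without WT replicate 1). The ribosomal counts rest on single libraries: 39 large subunit genes were lower without GFP replicate 1 and 7 without GFP replicate 2, and the small subunit count fell to 7 without GFP replicate 2. Of 34 lysosomal genes 18 were higher and 4 lower (7 lower when scaled by library size alone), among the former GAA, the acid α-glucosidase (0.77 ± 0.09), while cathepsin H (CTSH) fell (-0.77 ± 0.09).

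Genes of the matrix and its receptors changed in both directions, with 11 of 34 tested matrix genes higher and 14 lower. For these and the integrins below, the shares of all tested genes were 23.1% higher and 22.8% lower. COL7A1, the anchoring fibril collagen, measured 77.7, 55.6 and 43.97 CPM against 7.53, 4.87 and 5.64 CPM and was uneven among the OSK libraries. LAMA4 (laminin α4) measured 417, 414 and 478 against 92.01, 113 and 123 CPM, LOX (lysyl oxidase) 355, 393 and 493 against 114, 127 and 131 CPM and COL5A2 117, 139.5 and 174 against 40.3, 38.1 and 38.8 CPM. COL1A1, the main chain of collagen I, fell from 82.96, 84.5 and 80.3 to 25.8, 20.1 and 16.8 CPM, COL4A1 from 641, 714 and 913 to 277, 329.7 and 305 CPM (WT 171, 329 and 338 CPM) and FBLN5 (fibulin 5) from 60.6, 81.2 and 82.5 to 17.4, 20.005 and 17.2 CPM. Among integrins, 4 of 14 were higher and 5 lower: besides ITGA5, ITGA7 and ITGA6, receptors of laminin, rose (1.07 ± 0.07 and 0.80 ± 0.08), and ITGB4 and ITGA3 fell (-1.16 ± 0.10 and -0.73 ± 0.06). PLAUR, the urokinase receptor, rose from 4.56, 3.87 and 5.37 to 25.6, 25.1 and 23.5 CPM.

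Of 25 genes of the TGF-β pathway, 15 were lower and 5 higher (median log2 fold change -0.31), the 5 becoming 3 without OSK replicate 1, OSK replicate 2 or GFP replicate 3 and 2 when scaled by library size alone. Against the GSTA4 line 15 were higher and 5 lower. CCN2 (connective tissue growth factor) fell from 1215, 1216 and 1272 to 624, 605 and 543 CPM, SMAD7, the inhibitory SMAD, from 99.6, 93.5 and 101 to 59.98, 57.5 and 55.6 CPM and LTBP2 from 451, 491 and 571 to 149.8, 147 and 156 CPM. Of 19 genes of BMP signalling 7 were higher and 6 lower, beside 23.1% and 22.8% of all tested genes. Among the 7 were 3 secreted antagonists: FST (follistatin) measured 8.40, 8.80 and 11.5 CPM against 1.06, 0.502 and 0.747 CPM, NOG (noggin) 8.40, 10.9 and 10.6 against 1.52, 1.29 and 2.31 CPM and CHRD (chordin) 1.71, 1.08 and 1.69 against 0.532, 0.0717 and 0 CPM. CHRD had a log2 fold change of 2.89 ± 0.71, and 5.11 without GFP replicate 1 or 2.29 without GFP replicate 3. BMP1, the protease that cleaves chordin and procollagen, rose from 132, 144 and 136 to 489, 449 and 451 CPM. The target genes ID3, ID2 and SMAD6 fell (-1.31 ± 0.09, -0.95 ± 0.07 and -0.996 ± 0.07), while ID1 rose (0.90 ± 0.08).

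JAG1, a ligand of the Notch receptors, measured 235, 219 and 214 CPM in OSK and 24.3, 25.02 and 24.7 CPM in GFP (log2 fold change 3.18 ± 0.08, edgeR adjusted p = 2.02e-17). LFNG, a glycosyltransferase that tunes Notch, measured 1.78, 1.39 and 1.27 against 0.152, 0.143 and 0.136 CPM, and HES4, of the HES family of Notch targets, rose from 10.2, 9.18 and 10.5 to 26.4, 32.4 and 31.5 CPM, whereas the receptor NOTCH1 fell from 49.9, 49.3 and 52.4 to 20.1, 19.8 and 24.1 CPM and the target HES1 did not pass (-0.01 ± 0.13, edgeR adjusted p = 0.967). In all, 4 of 13 Notch genes were higher (2 when only genes with a mean of at least 1 CPM were tested) and 3 lower. The shares of all tested genes were similar, at 23.1% and 22.8%. Of 24 WNT pathway genes 13 were lower and 4 higher. TCF7L2, a nuclear effector of β-catenin, rose from 72.5, 66.7 and 68.3 to 264, 265 and 258 CPM, while the target AXIN2 did not pass (-0.42 ± 0.20, edgeR adjusted p = 0.0989) except without GFP replicate 1 (-0.61, edgeR adjusted p = 0.0161).

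FGF and ERK genes were higher for 11 of 24 and lower for 3. For this list and the AP-1, EGR and IGF lists below, the shares of all tested genes were 23.1% higher and 22.8% lower. Besides FGF7, the receptor ERBB3 rose from 1.52, 0.0717 and 0.340 to 5.76, 6.27 and 6.47 CPM (log2 fold change 3.28 ± 0.52; leaving out GFP replicate 1 gave 4.83) and the feedback genes DUSP5 (1.62 ± 0.16), ETV5 (0.89 ± 0.09) and SPRY2 (0.72 ± 0.07) rose, while EGFR fell from 476, 509 and 501 to 271, 286 and 289 CPM. Among AP-1 and EGR genes 5 of 12 were higher and 2 lower: FOS rose from 4.49, 3.37 and 2.31 to 16.1, 18.5 and 18.4 CPM, FOSL2 from 196, 201 and 225 to 665, 660.4 and 631 CPM and the nuclear receptor NR4A1 from 4.49, 3.73 and 3.60 to 41.3, 36.5 and 33.6 CPM, but JUN fell from 127, 149 and 158 to 50.9, 53.7 and 55.4 CPM and EGR1 did not pass (0.30 ± 0.19, edgeR adjusted p = 0.214). In the IGF axis 6 of 12 were higher and 3 lower. IGFBP6, whose levels and promoter are given above, had a log2 fold change of 4.56 ± 0.14 (edgeR adjusted p = 4.25e-16), and IGFBP3 rose from 64.6, 83.2 and 80.2 to 130.1, 152 and 152 CPM.

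Guidance molecules, which steer axons and vessels, changed in both directions, with 15 of 34 tested higher and 12 lower (23.1% and 22.8% of all tested genes). PLXNA2, a semaphorin receptor, measured 88.9, 82.4 and 73.8 CPM against 5.70, 5.23 and 4.89 CPM (log2 fold change 3.95 ± 0.13, edgeR adjusted p = 2.89e-15). The ligands SEMA3B and SEMA3F rose from 433, 484 and 522 to 1839.8, 1904 and 1819.6 CPM and from 8.59, 9.10 and 10.3 to 50.8, 47.4 and 53.5 CPM. Their coreceptors NRP1 and NRP2 rose too, from 25.5, 20.4 and 20.04 to 70.4, 73.6 and 88.2 CPM and from 0.912, 0.860 and 0.136 to 3.70, 5.001 and 6.33 CPM. The netrin receptor UNC5B rose from 248, 266 and 322 to 739.8, 765 and 709.6 CPM, with the limit on its antisense partner given above. EPHA4 and EPHB2, ephrin receptors, fell (-1.02 ± 0.07 and -1.11 ± 0.15), as did SEMA4A (-1.37 ± 0.17).

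**Figure D5:**
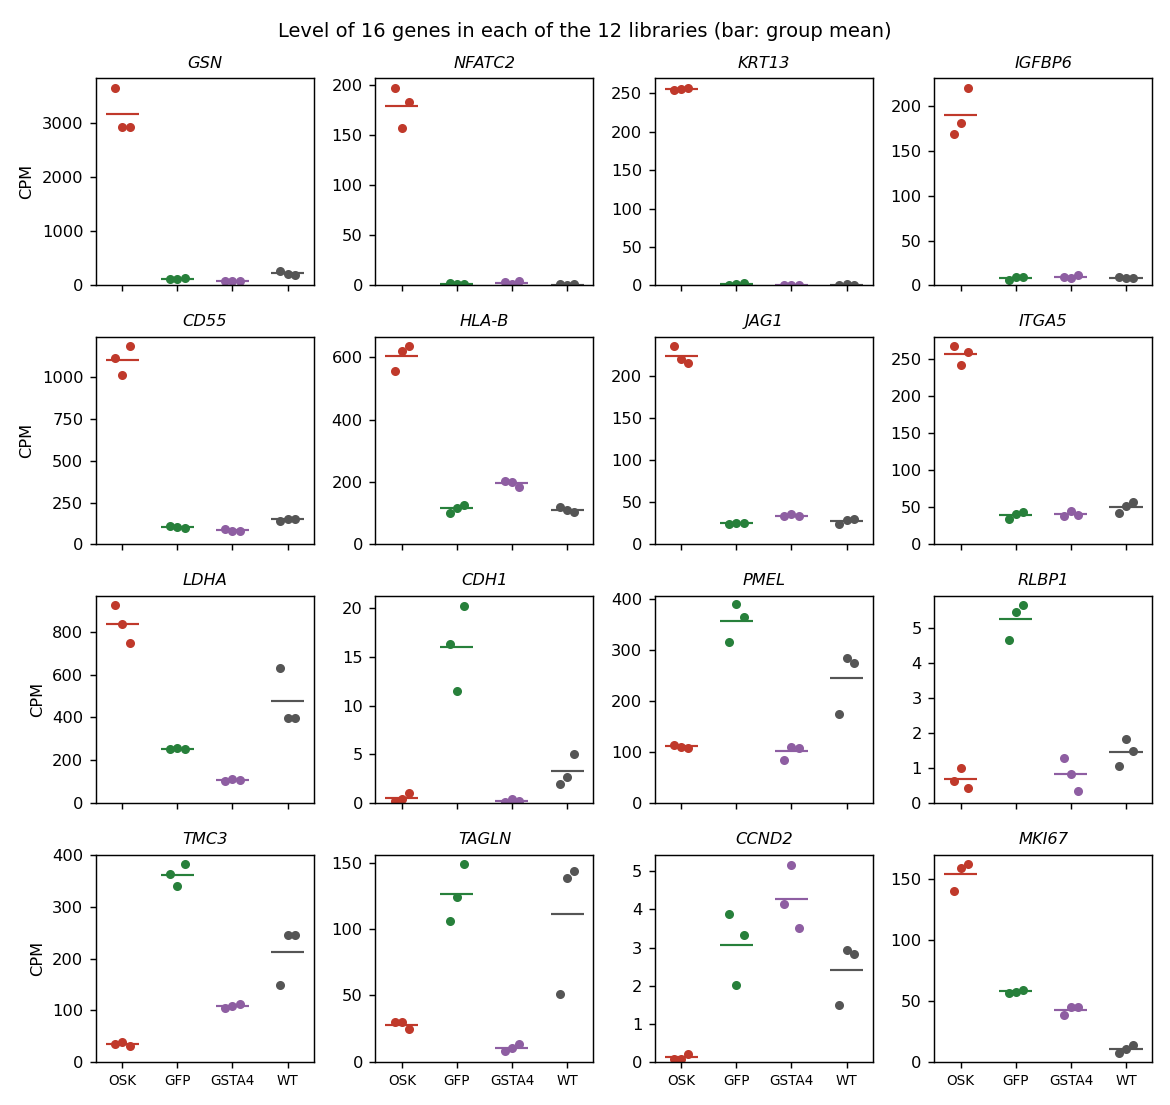
Level in CPM (vertical axis, from 0) of 16 genes in each of the 12 libraries, with the bar at the mean of each group of 3. GSN, NFATC2, KRT13, IGFBP6, CD55, JAG1 and ITGA5 are high in the OSK libraries and low in the GFP, GSTA4 and WT libraries, whereas CDH1 and RLBP1 are high in the GFP libraries, with WT nearer to OSK.

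The other groups place these values. In the same fit, OSK against the GSTA4 line gave 7262 genes past the threshold (47.8%), 3655 higher and 3607 lower; this contrast tests whether a change from GFP differed between the 2 ORF lines. JAG1, NFATC2, GSN and CD55 were higher in OSK than in the GSTA4 line, with log2 fold changes of 2.71, 5.95, 5.30 and 3.74 (edgeR adjusted p = 1.00e-16, 3.79e-16, 3.79e-18 and 7.31e-19). For CDH1, RLBP1 and TRPM1, which were lower in OSK than in GFP, the contrast of OSK with the GSTA4 line gave log2 fold changes of 1.30, -0.23 and 0.75 (edgeR adjusted p = 0.182, 0.715 and 0.107). PMEL likewise had means of 111 CPM in OSK and 101 CPM in the GSTA4 line (log2 fold change 0.13, edgeR adjusted p = 0.45). Mitotic genes were higher in OSK than in the GSTA4 line for 41 of 42 and than in WT cells for all 42.

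Most markers of other cell types were at or near 0 reads in OSK. Of 18 endothelial genes 12 were untested; PECAM1 and CDH5 had 0, 0 and 1 and 0, 0 and 0 reads in OSK and 12, 1 and 2 and 12, 1 and 1 in GFP. In that list APLNR, the apelin receptor, rose from 0.608, 0.0717 and 0 to 6.76, 5.06 and 8.72 CPM (log2 fold change 4.93 ± 0.58; leaving out GFP replicate 1 gave 7.30) and KDR, a VEGF receptor, fell from 67.98, 57.3 and 60.7 to 24.5, 23.8 and 21.7 CPM. Of 18 leukocyte genes 14 were untested and PTPRC (CD45) had 0, 0 and 0 reads in OSK and 4, 0 and 0 in GFP. Of 30 neural genes 22 were untested and DCX had 0, 0 and 0 against 5, 1 and 0 reads; of the tested ones MAP2 rose from 96.8, 75.9 and 80.8 to 189, 176 and 175 CPM and SYT1 fell from 89.5, 83.7 and 93.1 to 41.6, 42.7 and 44.1 CPM. MAP2 averaged 164 CPM in WT cells, near OSK. The summed level of the leukocyte list ran from 16.8 to 23.4 CPM over the OSK libraries and from 20 to 20.8 over GFP, and that of the endothelial list from 35 to 36.9 CPM over OSK and from 62.2 to 84.6 over GFP. Of the untested markers, 10 endothelial, 13 leukocyte and 20 neural genes had 3 reads or fewer in every OSK library. In GFP these were 3, 6 and 14 genes, and 10, 11 and 17 without GFP replicate 1.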

How the data were processed

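Poly(A) RNA from ARPE-19 cells was extracted with TRIzol and made into libraries with a NEBNext Ultra II kit, per the labels' protocols. The deposited values are raw counts of reads per gene, made by the authors. The submitters' processing notes name STAR 2.7.1a and featureCounts 1.6.2, and human and mouse genome builds without saying which served here; the annotation and the strand setting are not given in the sources used here. Lines without a gene symbol (0.485% to 0.822% of reads) stayed out of library sizes and tests, and 1272 lines that share a symbol were kept apart.

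Counts were tested with edgeR 4.0.16 (limma 3.58.1, R 4.3.3) with TMM normalization and its two-sided quasi-likelihood test. Genes were kept by filterByExpr with the 4 groups of 3 libraries, 1 model held a term for each group over all 12 libraries, without covariates, and p-values were adjusted by Benjamini-Hochberg over all 15179 tested genes with 0.05 as the threshold. The fit had 8 residual and 12 prior degrees of freedom and a common biological coefficient of variation of 7.91%. An SE is the log2 fold change over the root of F, and fitted values of genes near 0 reads depend on the prior count of 0.125. Where every library of a group held 3 reads or fewer, a fold is given as a bound against the mean of that floor. The bound holds for the observed counts and is not a confidence limit. These floors allow for counting error alone, since reads without molecular identifiers are not independent molecules. The functions were tested on simulated counts. Alternatives were DESeq2 1.42.0, other scalings, filters and controls, a replicate block, a minimum fold and leaving out each library.

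The named genes are the introduced factors, the 10 largest rises and falls (mean of at least 1 CPM, no overlap), the 5 largest gains and losses in CPM, the 10 highest gained and lost genes, up to 4 members of each list by adjusted p, and defining or further members chosen after their values were seen. The comparison, the gene lists and the promoters were chosen with earlier results of these data known, so list counts are descriptions and were given no set test. No pair of libraries within a group agreed within sampling noise (chi-square per degree of freedom 2.54 to 17.4). Replicate numbers did not pair the OSK and GFP libraries: same-numbered deviations correlated at -0.012 to 0.006. Values of some genes chosen this way are not reported here. Promoter sequences come from RefSeq (GRCh38.p14).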

Additional observations from a re-analysis of the deposited data

Results flagged for a closer look

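The 20014 lines without a gene symbol, which no comparison uses, held signal. When they entered an edgeR fit of all lines, 1914 of them were tested, 75 were higher in OSK than in GFP and 344 lower, of which 52 and 251 had a log2 fold change of at least 1 in size. Both shares of called lines were smaller than the 23.1% higher and 22.8% lower of the tested genes with a symbol. Lines without a symbol took 0.822%, 0.668% and 0.576% of reads in GFP replicates 1, 2 and 3. In the OSK libraries they took 0.485% to 0.506%. No fit of these lines left out GFP replicate 1. These lines cannot be tied to genes here.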

How the results depend on the processing

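The counts of genes past the threshold stayed within 1.5 times of 6962 (3508 higher, 3454 lower) with DESeq2, with RLE or library-size scaling, without a filter or with one at a mean of 1 CPM, and with only the 6 OSK and GFP libraries or WT as the control. A test against a minimum log2 fold change of 1 called 696 genes, 418 higher and 278 lower, and 976 for OSK against GSTA4. Leaving out 1 library at a time gave 6188 to 6625 genes past the threshold over the OSK and GFP libraries, 3142 to 3390 higher and 3012 to 3235 lower; without WT replicate 1 the counts were 7569, 3817 and 3752. Leaving out an OSK or GSTA4 library gave 6452 to 6674 for OSK against GSTA4. Of the 6962 genes, 85.6% to 88.7% were called again without an OSK or GFP library, none of them with the opposite sign. With the replicate number as a block, 7269 genes passed for OSK against GFP; the numbers do not pair the libraries.

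The gained and lost genes (41 and 31) depend on the levels set for on and off. They numbered 17 and 5 with the off level under 0.25 CPM, 109 and 154 with it under 1 CPM, 18 and 2 with the on level at 2 CPM, 16 and 13 with the filter at a mean of 1 CPM, and 85 and 11 with WT as the control. Leaving out 1 OSK or GFP library gave 43 to 82 gained and 32 to 77 lost genes, and leaving out WT replicate 1 gave 43 and 28, or 96 and 20 with the remaining WT libraries as the control. With WT as the control, 65 of 4945 genes called in both comparisons had the opposite sign, 44 of 4973 without WT replicate 1. Of the genes named here, 6 that fell against GFP had a positive log2 fold change against WT: COL4A1 0.12 (-0.14 without WT replicate 1), LRAT 0.39 (0.39), SERPINF1 0.62 (0.47), TRPM1 0.54 (0.05), TYR 0.67 (0.33) and TYRP1 0.27 (0.09). A further 20 of the chosen genes, some not printed, kept their sign but lost their call against WT. Without WT replicate 1 such genes numbered 11. Among the 20 were ID1 (0.16, edgeR adjusted p = 0.112), MALAT1 (-0.38, 0.126), SEMA4A (-0.36, 0.102), GPR143 (-0.22, 0.0569) and LSS (-0.16, 0.0582). ID1 and SEMA4A passed without WT replicate 1 (0.25 and -0.46, edgeR adjusted p = 0.00763 and 0.0449). The cause was not tested. A further limit is depth: at 0.19 to 0.228 CPM for 3 reads, silent and weakly expressed genes cannot be told apart. The lncRNA counts without a library and the fits that leave out a GSTA4 library or WT replicate 1 were added after seeing the data.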

Other observations

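Among further lists, those of chromatin and heat shock genes had shares of called genes close to the 23.1% higher and 22.8% lower of all tested genes, and single members changed within them. Of 35 tested chromatin genes 11 were higher and 9 lower (median log2 fold change -0.05): the de novo methyltransferase DNMT3A fell from 56.6, 51.6 and 54.1 CPM in GFP to 33.4, 37.03 and 30.9 CPM in OSK and the 5-methylcytosine oxidase TET3 from 35.6, 31.8 and 32.8 to 22.2, 20.1 and 18.7 CPM, while the chromatin architectural protein HMGA2 rose from 2.97, 3.73 and 1.97 to 7.97, 6.90 and 8.16 CPM. EZH2, the histone H3 methyltransferase of Polycomb, did not pass (0.07 ± 0.11 on the log2 scale, edgeR adjusted p = 0.645), and EZH1 fell (-0.51 ± 0.07). Of 27 p53 target genes 8 were higher (4 when scaled by library size alone) and 10 lower, with none at a log2 fold change of 1 or more in size: BBC3 (PUMA) fell (-0.75 ± 0.13) and FAS, a death receptor, rose (0.62 ± 0.13).

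Of 20 heat shock genes 4 were higher and 5 lower (3 lower without OSK replicate 1, OSK replicate 3 or GFP replicate 1), with a median log2 fold change of -0.03. CRYAB, the small heat shock protein αB-crystallin, fell from 1174, 1449 and 1476 to 702, 675 and 675 CPM and HSPA1B rose from 38.9, 41.4 and 48.1 to 69.4, 72.2 and 58.95 CPM. Of 21 genes of fatty acid synthesis and oxidation 9 were higher and 3 lower, beside 23.1% and 22.8% of all tested genes. CPT1A, which admits fatty acids to mitochondria, rose from 70.1, 63.7 and 60.1 to 118, 124 and 125 CPM. FADS3, a desaturase family member, fell from 168, 172 and 176 to 81.2, 80.3 and 76.05 CPM. NFKBIA, the inhibitor of NF-κB, rose from 21.1, 22.1 and 26.3 to 89.4, 66.8 and 66.5 CPM, and stood at 103, 39.8 and 39.6 CPM in WT replicates 1, 2 and 3. With WT as the control its log2 fold change was 0.29 (edgeR adjusted p = 0.34), and 0.90 without WT replicate 1 (edgeR adjusted p = 3.05e-08).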
